A study of Homo sapiens with 8 samples.

Results

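HLA class I molecules carry peptides from inside the cell to its surface, and 8 genes of that system are described here in DLD1, a human colorectal adenocarcinoma cell line. They are the heavy chain genes HLA-B, HLA-C, HLA-E and HLA-F, the light chain gene B2M, the transactivators NLRC5 and IRF1, and CD274, which encodes the T cell inhibitory ligand PD-L1. The 8 genes were chosen by symbol, with earlier results of these data known. Each symbol occurred once among 60234 genes of the normoxia table and once among 60612 genes of the hypoxia table. The series holds 8 libraries of poly(A)-selected RNA in 4 groups of 2. The groups are DLD1 cells with the control hairpin shNT (genotype label WT) under normoxia, cells with the hairpin shPP (genotype label PPA2 knockdown) under normoxia, and the same hairpins under hypoxia, each for 12 hours. The knockdown cells carry 1 hairpin against PPA2, the gene of mitochondrial inorganic pyrophosphatase, and the labels name no further hairpin and no rescue, so loss of PPA2 and other effects of this hairpin cannot be told apart. The labels do not say whether the libraries of a group came from separate cultures, so p-values measure the spread between these libraries, which may be technical.

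A class I molecule is a heavy chain paired with beta-2-microglobulin, the product of B2M, and a bound peptide. HLA-B and HLA-C are classical heavy chains that show peptides to cytotoxic T cells, while HLA-E and HLA-F are non-classical ones read mainly by receptors of natural killer cells. IRF1 is an interferon-induced transcription factor that binds the interferon-stimulated response element (ISRE) of class I promoters, and NLRC5 is a coactivator that has no DNA-binding domain for this and acts through factors bound to the neighbouring SXY module. Epithelial cells, colon cancer cells included, usually keep these genes at a basal level that interferon raises. RNA was measured here, and surface protein was not.

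Normoxia values are RPKM (reads scaled to gene length and library size) and hypoxia values are FPKM (the same for fragments), in tables that were normalized separately, so knockdown was tested within each table and levels are not tested between oxygen levels. The steps between low RPKM values put the normoxia libraries at an estimated 27950000 to 35730000 reads, at which the 8 genes had from an estimated 234 reads (CD274) to 26223 reads (B2M) in a library. For the hypoxia libraries the depth is unknown. PPA2, the target of the hairpin, had 79.8 and 84.1 RPKM in control and 5.88 and 5.74 RPKM in knockdown libraries under normoxia, and 65.5 and 50.8 against 9.85 and 9.0 FPKM under hypoxia. Epithelial markers were present (EPCAM from 292 to 509 and KRT8 from 915 to 1697 in RPKM or FPKM), although LGALS4 stayed below 1.3 and VIL1 below 4.6. Of 12 leukocyte, fibroblast and endothelial markers, 11 were below 1 in every library that listed them. The exception was CD14, at most 1.43 RPKM. The summed level of these markers was 1.68 to 2.07 RPKM in control and 1.7 to 2.1 RPKM in knockdown libraries under normoxia. PECAM1 was not listed for normoxia, so those sums cover 11 of the 12. Under hypoxia the sums over all 12 were 1.31 to 1.47 FPKM in control and 2.47 to 2.93 FPKM in knockdown libraries. Their part in the hypoxia results was not tested; 2 of the 12 were listed at 0 in all 8 libraries. With 1 of the 12 above the filter under normoxia and 0 under hypoxia, the list was too low to be tested. Of 9 epithelial markers tested, 2 were higher and 5 lower in knockdown cells under normoxia (median log2 fold change −0.19). Under hypoxia, 3 of them were higher and 2 lower (median 0.12). KRT20 rose at both oxygen levels (1.05, limma adjusted p = 0.000373, and 1.30, 4.5e-05). VIL1 fell at both (−1.41, limma adjusted p = 0.000875, and −1.16, 0.000321). Among all genes tested, 34.2% were called under normoxia (22.5% higher and 11.7% lower) and 58.4% under hypoxia (24.6% higher and 33.8% lower). The counts of epithelial markers called under normoxia and those under hypoxia each varied when 1 library was left out. In normoxia, 1 was higher and 3 lower without control replicate 2 or knockdown replicate 2. In bulk RNA, fewer cells of a type and less RNA per cell cannot be told apart.

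Under normoxia, 5 of the 8 genes were higher in knockdown cells and 0 were lower (HLA-B, HLA-C, HLA-F, B2M and IRF1; limma adjusted p under 0.05 over 14090 genes). Of all genes tested, 34.2% were called, 22.5% higher and 11.7% lower. The median log2 fold change of the 8 genes was 0.47, beside 0.07 for all genes tested. Under hypoxia 4 were higher (HLA-B, HLA-C, HLA-E and IRF1) and 1 was lower (CD274), where 58.4% of 13080 genes tested were called, 24.6% higher and 33.8% lower. The median of the 8 genes was then 0.08, beside −0.06 for all genes. The knockdown response differed between oxygen levels for 4 genes (B2M, CD274, HLA-F and NLRC5), in each case lower under hypoxia. Of 12060 genes, 45.5% were called in that test, 31.4% lower and 14.1% higher. Each oxygen level has its own table, so oxygen and differences between the tables cannot be told apart there. The log2 fold change of PPA2 itself was −3.61 under normoxia and −2.49 under hypoxia, a difference of 1.11 (limma adjusted p = 0.000165). Whether this unequal fall of PPA2 touches the 4 differences was not tested. All 8 genes had both knockdown libraries above both control libraries under normoxia, as had 44.2% of all genes, while 26.4% lay wholly below and 70.5% did not overlap in either direction. Under hypoxia 4 of the 8 lay wholly above (35.5% of all genes) and 2 wholly below (44.9% of all genes), where 80.4% did not overlap in either direction. The split of calls moves with scaling. Higher genes made up 65.7% of calls under normoxia. That became 50.5% after scaling to the median ratio and 75.5% once mitochondrial genome genes were left out. Under hypoxia they made up 42.2% of calls, and 49.7% and 60.4% under these scalings in the same order. For the difference they made up 31.0% of calls, and 49.3% and 47.5% under these scalings.

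**Figure D1:**
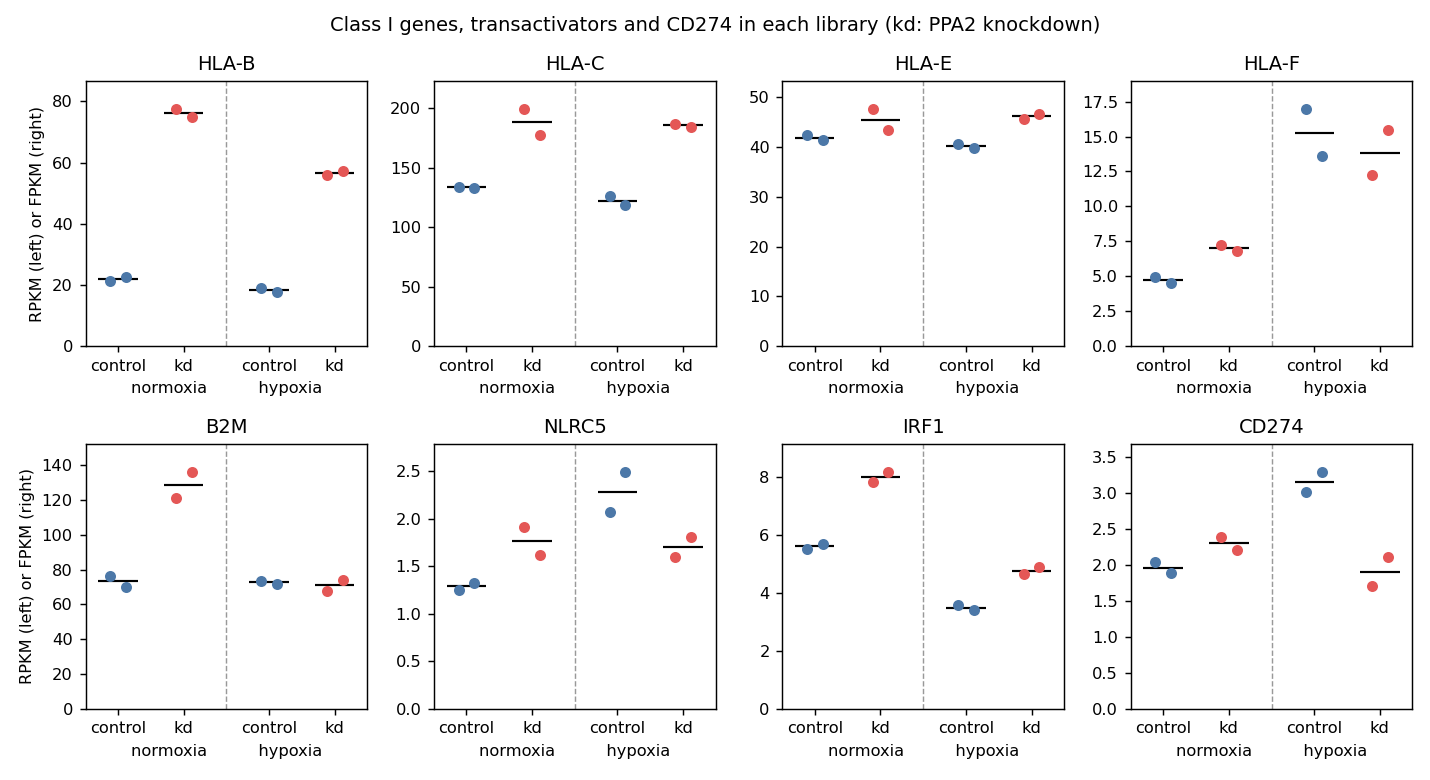
RPKM (normoxia, left of the dashed line) or FPKM (hypoxia, right of it) of each gene, with 1 point per library and a bar at the mean of the 2 libraries of a group; blue is control and red is PPA2 knockdown (kd). HLA-B stands at 74.98 RPKM or more in both normoxia knockdown libraries and at 22.7 RPKM or less in the controls, while the B2M groups are apart under normoxia and overlap under hypoxia.

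HLA-B rose more than any other of the 4 heavy chains at both oxygen levels. The gene (ENSG00000234745) spans 31269491 to 31357188 of chromosome 6 (GRCh38, minus strand). Control libraries had 21.3 and 22.7 RPKM under normoxia (mean 22.0 ± 0.954, SD, n = 2), and knockdown libraries had 77.4 and 75.0 RPKM (mean 76.2 ± 1.7, SD, n = 2). Both knockdown libraries were far above both controls, and the log2 fold change of value + 1 was 1.75 ± 0.06 (SE), 3.35-fold (limma adjusted p = 5.88e-05). In hypoxia, control libraries had 19.0 and 17.8 FPKM and knockdown libraries 55.9 and 57.2 FPKM. The groups were again well apart, with a log2 fold change of 1.57 ± 0.07, 2.97-fold (limma adjusted p = 2.33e-05). The HLA-B responses differed by −0.18 ± 0.09 (log2; limma adjusted p = 0.133), with a 95% interval from −0.37 to 0.02. Within each library, HLA-B moved from the 71.4 and 72.8 percentile of tested genes in normoxia controls to the 93.0 and 92.7 percentile in knockdown libraries, and from the 70.8 and 68.5 to the 92.3 and 92.6 percentile under hypoxia.

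HLA-C, the most abundant of the 4 heavy chains per annotated length, was higher by a smaller factor. The gene (ENSG00000204525, minus strand of chromosome 6, 31268749 to 31272130) had 134 and 133 RPKM in normoxia controls and 199 and 177 RPKM in knockdown libraries. The groups did not overlap, and the log2 fold change was 0.49 ± 0.06 (limma adjusted p = 0.00312). In hypoxia, it had 126 and 119 FPKM in control and 187 and 184 FPKM in knockdown libraries, a log2 fold change of 0.60 ± 0.06 (limma adjusted p = 0.000319). The HLA-C responses differed by 0.11 ± 0.09 (log2; limma adjusted p = 0.368; 95% interval −0.10 to 0.31). That difference passed only with mitochondrial genome genes left out (0.24, limma adjusted p = 0.0355). The annotated spans of HLA-B and HLA-C share 2640 bases, since a long HLA-B transcript reaches into HLA-C, and their exons share 35 bases in GENCODE 29. Heavy chain genes are also alike in sequence and vary between people. How reads that match several of them were counted is not given in the sources used here, so the split of reads between these genes is uncertain.

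The promoters of HLA-B and HLA-C are shown because both genes rose at both oxygen levels and by different amounts. Windows run from 250 bases before to 50 bases after the RefSeq start (GRCh38.p14), on the gene's own strand. They were found for 6 of the 8 genes, all but HLA-E and NLRC5. Capitals mark every match, on either strand, to the motifs searched: an ISRE-like motif, the ISRE of class I genes, TTCNNNGAA (interferon gamma-activated site, GAS-like), the kB site of enhancer A in a strict form and with 1 free base at either of 2 places, GGGANNTCC (short kB-like), a longer kB-like motif, TGACGTCA and its part TGACG (cyclic AMP response element, as in the X2 box) and CCAAT (as in the Y box). Motifs of 10 or more letters are given by name, with the letters of their matches as read from the windows. The 3 enhancer A forms overlap each other, as the first 2 motifs can. The class I ISRE and the enhancer A form with a free base late in the site were added after the windows had been read. HLA-B lies at chr6:31357130-31357429 and HLA-C at chr6:31272043-31272342, both on the minus strand.
HLA-B: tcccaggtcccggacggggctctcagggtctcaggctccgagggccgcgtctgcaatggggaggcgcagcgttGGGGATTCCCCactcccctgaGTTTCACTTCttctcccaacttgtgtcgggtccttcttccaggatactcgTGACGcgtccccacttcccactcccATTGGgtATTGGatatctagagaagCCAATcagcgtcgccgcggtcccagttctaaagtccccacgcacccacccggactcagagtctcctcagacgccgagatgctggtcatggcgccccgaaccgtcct
HLA-C: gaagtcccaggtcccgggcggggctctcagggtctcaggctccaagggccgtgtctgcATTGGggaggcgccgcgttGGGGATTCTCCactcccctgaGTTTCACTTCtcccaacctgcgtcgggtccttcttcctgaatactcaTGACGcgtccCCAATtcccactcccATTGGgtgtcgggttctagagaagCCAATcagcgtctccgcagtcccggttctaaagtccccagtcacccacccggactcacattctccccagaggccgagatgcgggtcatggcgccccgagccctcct
The enhancer A motif reads GGGGATTCCCC in HLA-B, starting 177 bases before the start of transcription, and GGGGATTCTCC in HLA-C, starting at 173 bases before it. The strict form and the form with an early free base matched HLA-B and not HLA-C, and the form with a late free base matched both. These 3 forms, in that order, occur in 0.0769%, 0.0740% and 0.0769% of 35116 promoter windows. The class I ISRE, found in 1.46% of windows, matched both genes as GTTTCACTTC on the opposite strand. TGACG (24.6% of windows) and CCAAT (34.6% of windows) matched both, while the ISRE-like motif, TTCNNNGAA (7.66% of windows), TGACGTCA (1.85%) and both kB-like motifs (GGGANNTCC in 4.79%) matched neither. HLA-F had 1 match to the ISRE-like motif (3.57% of windows), 2 to CCAAT and none to TGACG or to the enhancer A motifs. A match is a description of the letters and no proof of binding.

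The non-classical heavy chains differed from that pattern. HLA-E (ENSG00000204592, plus strand of chromosome 6, 30489509 to 30494194) had 42.3 and 41.4 RPKM in normoxia controls and 47.5 and 43.4 RPKM in knockdown libraries. The groups lay close together without overlap, and the log2 fold change of 0.12 ± 0.06 did not pass (limma adjusted p = 0.185; 95% interval −0.03 to 0.26). Hypoxia libraries had 40.6 and 39.8 FPKM in control and 45.6 and 46.6 FPKM in knockdown libraries, a log2 fold change of 0.19 ± 0.06 (limma adjusted p = 0.032). That small rise did not pass without knockdown replicate 1 (limma adjusted p = 0.166) or knockdown replicate 2 (0.239), without a mean-variance trend (0.0763) or with the replicate number as a block (0.0553). HLA-F (ENSG00000204642, plus strand of chromosome 6, 29722775 to 29738528) had 4.92 and 4.49 RPKM in normoxia controls and 7.27 and 6.8 RPKM in knockdown libraries. Both knockdown libraries were higher, with a log2 fold change of 0.49 ± 0.08 (limma adjusted p = 0.00675). Hypoxia libraries had 16.9 and 13.6 FPKM in control and 12.2 and 15.5 FPKM in knockdown libraries. These groups overlapped, and the log2 fold change was −0.13 ± 0.14 (limma adjusted p = 0.427; 95% interval −0.46 to 0.19), which turned to 0.05 with mitochondrial genome genes left out (0.770). The difference of the HLA-F responses was −0.63 ± 0.17 (log2; limma adjusted p = 0.0121), and did not pass without hypoxia knockdown replicate 1 (−0.47, 0.0514) or with no filter on low values (0.0594).

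HLA-F shares 535 exonic bases with HLA-F-AS1, an antisense transcript on the other strand. HLA-F-AS1 had 2.15 and 2.07 RPKM in normoxia controls and 3.01 and 3.64 RPKM in knockdown libraries (log2 fold change 0.47, limma adjusted p = 0.0212, which did not pass without control replicate 2, 0.059, or knockdown replicate 2, 0.089). Under hypoxia it had 2.75 and 3.34 FPKM in control and 6.59 and 5.74 FPKM in knockdown libraries (0.83, limma adjusted p = 0.00126). The library kit was directional, but whether counting used strand is not given in the sources used here, so reads of both genes cannot be told apart. The tables also list some genes at very different levels, as IL10RB at 0.0184 and 0.0288 RPKM in normoxia controls and 6.91 and 6.12 FPKM in hypoxia controls, so the higher HLA-F level in the hypoxia table is given as a value only. Whether differences in counting between the tables touch the difference of the HLA-F responses was not tested.

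As a share of the summed value of the 4 heavy chain genes, HLA-B made up 10.6% and 11.3% in normoxia controls and 23.4% and 24.8% in knockdown libraries. Under hypoxia its share was 9.41% and 9.36% in control and 18.6% and 18.8% in knockdown libraries. The HLA-B share was thus higher in both knockdown libraries at each oxygen level. The HLA-E share was lower, at 20.9% and 20.6% against 14.4% and 14.4% under normoxia and 20.1% and 21.0% against 15.2% and 15.4% under hypoxia. HLA-C held the largest share in all 8 libraries, from 58.6% to 66.1%. The HLA-B to HLA-C ratio was 0.160 and 0.171 in normoxia controls and 0.389 and 0.423 in knockdown libraries, and 0.151 and 0.150 against 0.3 and 0.310 under hypoxia. With 2 libraries a group, the exact two-sided permutation test cannot go below p = 0.333, the value it gave for each of these ratios and shares of HLA-B and HLA-E.

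**Figure D2:**
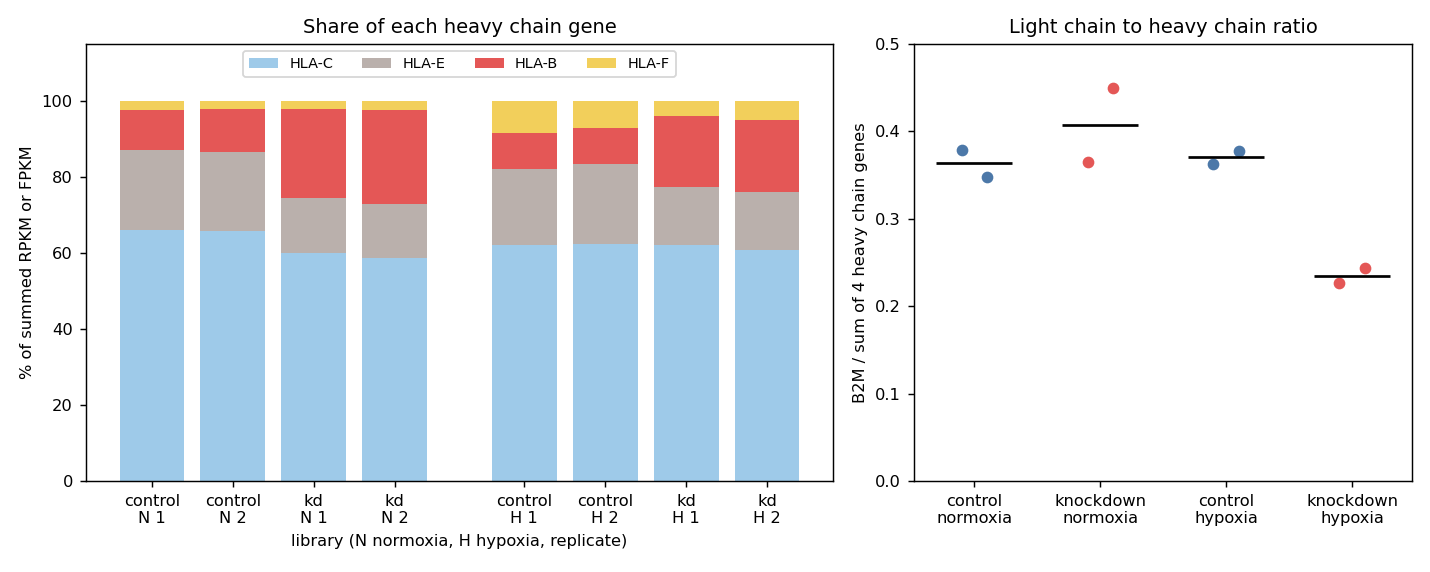
Left, the percent of the summed RPKM or FPKM of HLA-B, HLA-C, HLA-E and HLA-F held by each gene, 1 bar per library (N normoxia, H hypoxia, kd PPA2 knockdown). Right, B2M divided by that sum, 1 point per library with a bar at the group mean; the HLA-B share is 18.6% or more in every knockdown library and 11.3% or less in every control, and the ratio on the right is lowest in the hypoxia knockdown libraries (0.226 and 0.244).

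B2M, whose protein every class I heavy chain named here needs for stable surface display in its usual form, rose under normoxia and had no such rise under hypoxia. The gene (ENSG00000166710) spans 44711487 to 44718877 of chromosome 15, plus strand. It had 76.6 and 70.2 RPKM in normoxia controls (73.4 ± 4.53, SD, n = 2) and 121 and 136 RPKM in knockdown libraries (128 ± 10.7, SD, n = 2). The groups were well apart, with a log2 fold change of 0.80 ± 0.07, 1.74-fold (limma adjusted p = 0.00117). Under hypoxia it had 73.5 and 71.7 FPKM in control (72.6 ± 1.23, SD, n = 2) and 68.0 and 74.1 FPKM in knockdown libraries (71.1 ± 4.35, SD, n = 2). Here the groups overlapped, and the log2 fold change was −0.03 ± 0.07 (limma adjusted p = 0.713), with a 95% interval from −0.19 to 0.13. The interval for the difference of the responses ran from −1.06 to −0.60, around −0.83 ± 0.11 (limma adjusted p = 0.000138), and passed without each library in turn (−0.91 to −0.75). Under hypoxia the B2M value turned positive with median ratio scaling (0.05, limma adjusted p = 0.626) and with mitochondrial genome genes left out (0.16, 0.0717).

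The ratio of B2M to the summed heavy chain value was 0.379 and 0.348 in normoxia controls and 0.365 and 0.45 in knockdown libraries, which overlap. Under hypoxia it was 0.363 and 0.378 in control and 0.226 and 0.244 in knockdown libraries, lower in both (exact two-sided permutation p = 0.333, the smallest that 2 against 2 libraries allow). The summed heavy chain value was higher in knockdown libraries at both oxygen levels, at 202 and 201 against 331 and 303 RPKM under normoxia and 202 and 190 against 300.3 and 304 FPKM under hypoxia. The level of B2M relative to other genes depends on the gene length used, and its exons cover 6079 bases in GENCODE 29, many of them in rarely used transcripts, so only ratios between libraries are read here. The B2M promoter (chr15:44711267-44711566, plus strand) is shown for comparison with the heavy chains, with the same motifs in capitals.
B2M: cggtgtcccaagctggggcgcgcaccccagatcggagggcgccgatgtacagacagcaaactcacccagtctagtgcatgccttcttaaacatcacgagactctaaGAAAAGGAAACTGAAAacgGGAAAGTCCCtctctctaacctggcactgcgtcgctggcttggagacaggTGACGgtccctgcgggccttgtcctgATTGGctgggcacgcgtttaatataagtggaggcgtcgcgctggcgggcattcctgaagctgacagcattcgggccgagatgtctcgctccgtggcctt
It held 2 overlapping matches to the ISRE-like motif, 1 to the longer kB-like motif on the opposite strand (0.558% of windows), 1 to TGACG and 1 to CCAAT. None of the 3 enhancer A motifs matched.

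**Figure D3:**
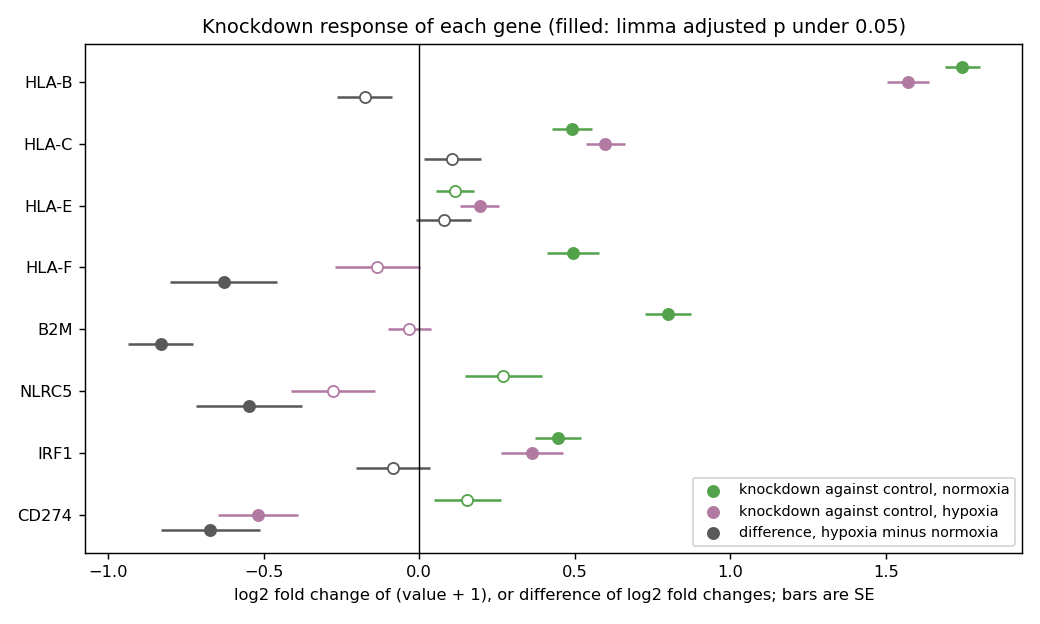
Log2 fold change of value + 1, knockdown against control, under normoxia (green) and hypoxia (purple), and the difference of both (grey), for each gene; bars are the standard error and filled points have a limma adjusted p under 0.05. HLA-B and HLA-C lie to the right at both oxygen levels, and B2M, HLA-F, NLRC5 and CD274 have filled grey points to the left of 0, from −0.83 to −0.55.

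IRF1 was modestly higher in knockdown cells at both oxygen levels. The gene (ENSG00000125347, minus strand of chromosome 5, 132481609 to 132490777) had 5.53 and 5.7 RPKM in normoxia controls and 7.84 and 8.18 RPKM in knockdown libraries. The groups did not overlap, and the log2 fold change was 0.45 ± 0.07 (limma adjusted p = 0.00612). Hypoxia values were 3.58 and 3.41 FPKM in control and 4.67 and 4.88 FPKM in knockdown libraries, a log2 fold change of 0.36 ± 0.10 (limma adjusted p = 0.0187). The hypoxia call was lost without knockdown replicate 1 (limma adjusted p = 0.0899) or 2 (0.14) and with no filter on low values (0.0616). The responses differed by −0.08 ± 0.12 (limma adjusted p = 0.592; 95% interval −0.35 to 0.18), a value that turned positive under both scalings. IRF1 shares 1716 exonic bases with the antisense transcript IRF1-AS1, which had 0.434 and 0.377 RPKM in normoxia controls and 1.16 and 1.13 RPKM in knockdown libraries, and 1.08 and 0.791 against 2.61 and 1.94 FPKM under hypoxia (log2 fold change 0.75, limma adjusted p = 0.00671). As for HLA-F, reads of the gene and of its antisense partner cannot be told apart without the counting rule. The IRF1 promoter (chr5:132490724-132491023, minus strand) is shown for its match to TTCNNNGAA, the form of an interferon gamma-activated site.
IRF1: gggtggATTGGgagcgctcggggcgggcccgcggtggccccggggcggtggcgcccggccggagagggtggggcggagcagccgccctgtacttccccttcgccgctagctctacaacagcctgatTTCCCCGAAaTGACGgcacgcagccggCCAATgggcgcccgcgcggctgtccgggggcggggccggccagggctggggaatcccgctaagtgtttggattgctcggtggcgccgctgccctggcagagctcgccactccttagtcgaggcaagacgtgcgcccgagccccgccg
The match reads TTCCCCGAA and starts 124 bases before the start of transcription; 7.66% of windows hold TTCNNNGAA. A TGACG and 2 CCAAT matches complete the capitals.

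NLRC5 was low in all libraries and its response differed in sign between oxygen levels. The gene (ENSG00000140853, plus strand of chromosome 16, 56989485 to 57083531) had 1.25 and 1.33 RPKM in normoxia controls and 1.91 and 1.62 RPKM in knockdown libraries. The log2 fold change of 0.27 ± 0.12 did not pass (limma adjusted p = 0.136; 95% interval −0.03 to 0.57). Under hypoxia it had 2.07 and 2.49 FPKM in control and 1.6 and 1.8 FPKM in knockdown libraries, and the log2 fold change of −0.28 ± 0.13 did not pass either (limma adjusted p = 0.118; 95% interval −0.60 to 0.04). Both knockdown libraries were thus above the controls under normoxia and below them under hypoxia. The NLRC5 responses differed by −0.55 ± 0.17 (log2; limma adjusted p = 0.0234) and −0.86 with a pseudocount of 0.01 (0.0275). It did not pass with mitochondrial genome genes left out (−0.45, 0.058) or with no filter on low values (0.0697). It was also lost without normoxia control replicate 1 (0.0713) or 2 (0.0526), normoxia knockdown replicate 1 (0.0829), hypoxia control replicate 2 (0.0597) or hypoxia knockdown replicate 1 (0.0771).

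CD274 went the other way under hypoxia. The gene (ENSG00000120217, plus strand of chromosome 9, 5450503 to 5470566) had 2.04 and 1.89 RPKM in normoxia controls and 2.38 and 2.21 RPKM in knockdown libraries. The groups lay close together, and the log2 fold change of 0.15 ± 0.11 did not pass (limma adjusted p = 0.303; 95% interval −0.10 to 0.41). Under hypoxia it had 3.01 and 3.29 FPKM in control and 1.71 and 2.1 FPKM in knockdown libraries. Both knockdown libraries were lower, with a log2 fold change of −0.52 ± 0.13 (limma adjusted p = 0.012), or −0.73 with a pseudocount of 0.01 (0.0139). The call was lost without control replicate 2 (−0.47, 0.0506) or knockdown replicate 1 (−0.42, 0.0933) and with no filter on low values (0.0793). The response was lower under hypoxia by −0.67 ± 0.16 (limma adjusted p = 0.00595), which passed without each library in turn (−0.77 to −0.57). The CD274 promoter (chr9:5450292-5450591, plus strand) is shown because this gene, also interferon-induced, fell under hypoxia where HLA-B and HLA-C rose.
CD274: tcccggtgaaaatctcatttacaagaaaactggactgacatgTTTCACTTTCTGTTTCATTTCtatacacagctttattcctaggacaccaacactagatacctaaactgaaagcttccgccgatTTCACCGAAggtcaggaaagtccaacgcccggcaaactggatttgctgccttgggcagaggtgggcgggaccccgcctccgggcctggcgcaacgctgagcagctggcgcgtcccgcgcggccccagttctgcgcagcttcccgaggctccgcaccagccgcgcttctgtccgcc
It held 2 matches to the ISRE-like motif, of which the first reads TTTCACTTTC on the opposite strand, 1 to the class I ISRE and 1 to TTCNNNGAA, and no match to TGACG. None of the enhancer A forms, the kB-like motifs or CCAAT matched either.

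The genes that lie around these 8 in the pathway were taken from lists chosen with earlier results known, and are described by counts. Each count is to be read against all genes tested, of which 34.2% were called under normoxia (22.5% higher and 11.7% lower) and 58.4% under hypoxia (24.6% higher and 33.8% lower). Of 14 genes of the immunoproteasome and of peptide loading, 12 were higher and 1 was lower under normoxia (median log2 fold change 0.52), and 11 were higher and 1 lower under hypoxia (median 0.39). Without hypoxia knockdown replicate 2 the 11 became 7, and the single lower call went to 0 without normoxia control replicate 1 or 2, normoxia knockdown replicate 2 or hypoxia knockdown replicate 1. PSMB9, an immunoproteasome subunit, went from 7.96 to 30.3 RPKM (1.80, limma adjusted p = 0.000235) and from 6.35 to 13.8 FPKM (1.01, 0.000195), and ERAP1, which trims peptides, from 6.63 to 13.1 RPKM (0.88, 0.000824) and from 4.58 to 14.0 FPKM (1.43, 4.78e-05). TAP1, a subunit of the peptide transporter, rose by 0.78 under normoxia (0.000696) and 0.45 under hypoxia (0.00387).

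Of the 8 partners of NLRC5 in the SXY module, 1 was higher and 1 lower under normoxia (median 0.08), and 3 were higher and 5 lower under hypoxia (median −0.37), beside 34.2% and 58.4% of all genes called in either direction. The 3 became 1 without hypoxia knockdown replicate 1 and 0 without replicate 2. NFYC, a subunit of the CCAAT-binding factor, fell at both (−0.49, limma adjusted p = 0.00197, and −0.42, 0.00347). RFX5, whose product binds the X box, stood at 16.1 RPKM in both normoxia groups (−0.01, limma adjusted p = 0.961) and fell from 23.3 to 14.4 FPKM under hypoxia (−0.65, 0.001); the responses differed by −0.65 (0.00137). RFXANK, another subunit of the same complex, also fell under hypoxia (−0.75, 0.00029). Of 13 NF-kB subunits, inhibitors and kinases, 6 were higher and 0 lower under normoxia (median 0.28), and 2 were higher and 6 lower under hypoxia (median −0.23), again beside 34.2% and 58.4% of all genes. For hypoxia, 8 of 13 is near that share. Not every one of the 6 higher calls under normoxia held when 1 library was left out. RELB rose at both (0.80, limma adjusted p = 0.00209, and 0.54, 0.00916), while NFKB2, the gene of its usual partner p52, rose under normoxia (0.49, 0.00246) and fell under hypoxia (−0.67, 0.000412). The responses of NFKB2 differed by −1.16 (limma adjusted p = 1.29e-05). In that test 9 of the 13 genes were called lower and 0 higher, beside 31.4% and 14.1% of all genes. Neither count was the same in every fit without 1 library.

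Of 19 interferon receptor and JAK-STAT genes, 14 passed the filter under normoxia, with 6 higher and 0 lower (median 0.24), and 17 under hypoxia, with 7 higher and 4 lower (median 0.16), near the shares of all genes called (34.2% and 58.4%). The 6 became 3 without normoxia control replicate 1 or knockdown replicate 2, and the 7 became 4 without either hypoxia knockdown replicate. JAK1, the kinase shared by interferon receptors, rose at both (0.31, limma adjusted p = 0.00557, and 0.64, 0.000481). JAK2 did not pass at either (0.30, 0.0984, and −0.33, 0.0679), and TYK2, a kinase of the type I interferon receptor, fell under hypoxia (−1.25, 4.06e-05). Of the 9 tested among 11 other IRF family genes and partners, 2 were higher and 0 lower under normoxia (median 0.07), led by IRF5 (0.58, limma adjusted p = 0.00691), and 2 were higher and 3 lower under hypoxia (median −0.19), led by IRF3, a driver of interferon beta (−1.02, 8.86e-05). The 2 higher under normoxia became 1 without any 1 of the 4 libraries, with 1 lower without knockdown replicate 1, and the 3 lower under hypoxia became 5 without control replicate 2. Of 16 interferon genes, 11 were listed at 0 in all 8 libraries, IFNB1 and IFNG among them. The highest value of any was 0.702 RPKM, of IFNE, in a normoxia knockdown library. The class II pathway stayed low: 10 of 13 genes were below 1 in every library, with HLA-DMA highest at 6.59 FPKM, and 1 gene passed the filter under normoxia and 2 under hypoxia, too few to describe as a list. CIITA, the class II transactivator and a relative of NLRC5, had 0.391 and 0.458 RPKM in normoxia controls and 1.22 and 1.41 RPKM in knockdown libraries. Under hypoxia it had 0.0714 and 0.0211 FPKM in control and 0.289 and 0.176 FPKM in knockdown libraries. At both oxygen levels it was below the filter for testing.

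**Figure D4:**
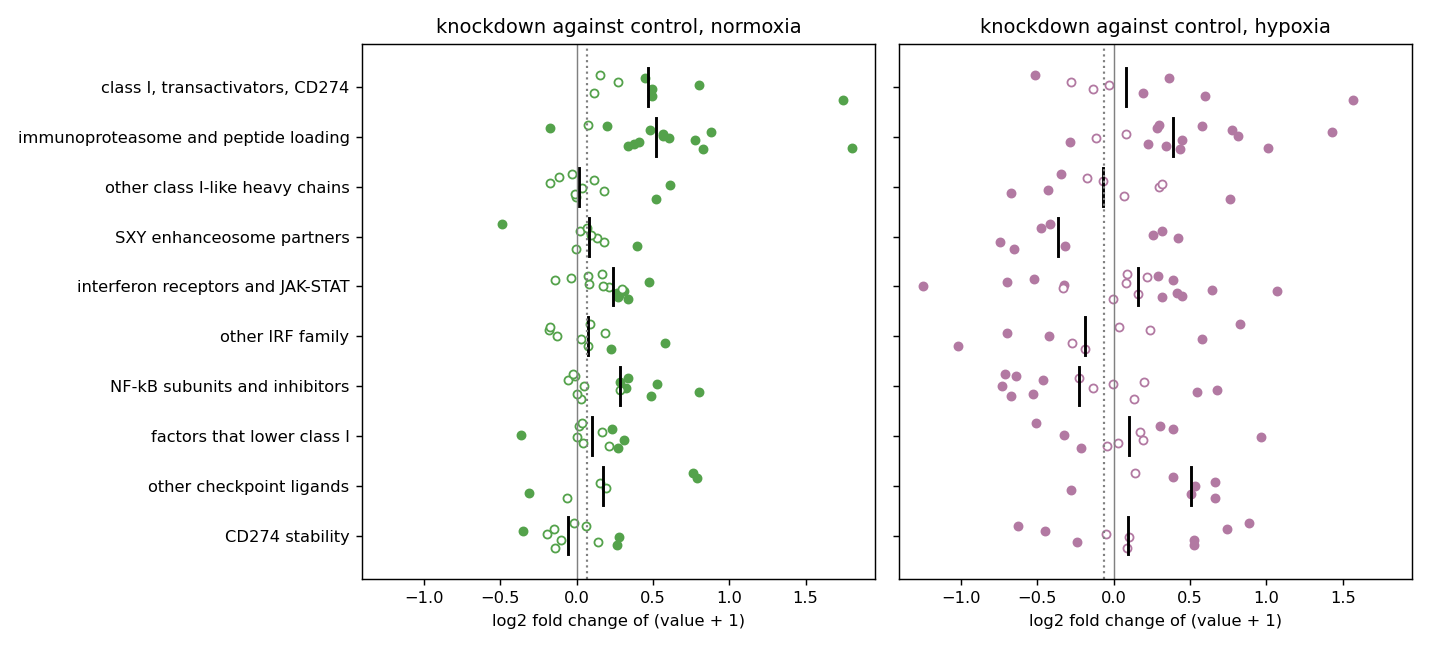
Log2 fold change of value + 1, knockdown against control, for each tested gene of 10 lists (1 point per gene, filled where the limma adjusted p is under 0.05); black bars are list medians and the dotted line is the median of all genes tested. Of 14 immunoproteasome and peptide loading genes, 12 under normoxia and 11 under hypoxia are filled and to the right of 0 and 1 is filled and to the left at each (medians 0.52 and 0.39), while the median of SXY partners is 0.08 under normoxia and −0.37 under hypoxia.

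Counts in this paragraph are read beside the 34.2% of all genes called under normoxia and the 58.4% under hypoxia. Among other class I-like heavy chains, 2 of 10 tested genes were higher and 0 lower under normoxia (median 0.01). Under hypoxia, 1 of 9 was higher and 3 lower (median −0.07), and neither share was exceeded. The count called higher under hypoxia became 2 when either control library was left out. MR1, which presents metabolites to T cells, rose at both (0.52, limma adjusted p = 0.00695, and 0.76, 0.00125). MICA, a ligand of the natural killer receptor NKG2D, stood at 12.9 RPKM in both normoxia groups (−0.01, 0.93) and fell from 18.6 to 11.3 FPKM under hypoxia (−0.67, 0.000956). Of 20 class I pseudogenes and noncoding genes of the region, 6 were tested under normoxia (3 higher and 1 lower, median 0.20) and 7 under hypoxia (4 higher and 0 lower, median 0.71). The normoxia calls became 0 and 0 without knockdown replicate 2, 1 higher and 0 lower without control replicate 1, and 1 higher and 1 lower without control replicate 2. They were 2 higher and 1 lower without knockdown replicate 1, and the 0 lower under hypoxia became 1 without control replicate 1. HLA-H, a pseudogene close in sequence to classical heavy chains, had 7.92 and 7.66 RPKM in normoxia controls and 8.6 and 7.45 in knockdown libraries, and did not pass at either oxygen level (0.04, limma adjusted p = 0.77, and 0.15, 0.301). HLA-V, another such pseudogene, was below the filter under normoxia and rose under hypoxia (1.01, 0.000658).

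Counts here are again read beside the 34.2% of all genes called under normoxia and the 58.4% under hypoxia. The 11 genes listed for lowering class I include Polycomb subunits, ubiquitin ligases, a protease, the autophagy receptor NBR1 and the butyrophilin BTN2A1. Of the 10 tested, 3 were higher and 1 lower under normoxia (median 0.10). Under hypoxia, 3 were higher and 3 lower (median 0.10), and the calls were near those shares at both oxygen levels. The 3 higher under normoxia became 0 without control replicate 1 or 2 and 1 without knockdown replicate 2, and the 3 lower under hypoxia became 1 without either knockdown replicate. TMEM127, which takes part in the removal of class I from the cell surface, stood at 21.2 and 21.3 RPKM under normoxia (limma adjusted p = 0.99) and rose from 5.2 to 11.1 FPKM under hypoxia (0.97, 0.000181). WWP2, of the same list, was lower at both (−0.37, limma adjusted p = 0.00806, and −0.32, 0.0115). Without 1 library its hypoxia value ran from −0.36 to −0.28, and that call did not hold in every case. SUSD6 was called higher under normoxia (0.31, limma adjusted p = 0.0342) and did not pass under hypoxia (0.19, 0.223). Its normoxia call did not hold without any 1 of the libraries, with values from 0.28 to 0.35. Of 14 other checkpoint ligands, 2 of 6 tested were higher and 1 lower under normoxia (median 0.17), and 5 of 7 were higher and 1 lower under hypoxia (median 0.50). Under normoxia the 2 became 1 without knockdown replicate 1 and the 1 lower became 0 without control replicate 1. The 1 lower under hypoxia became 0 without control replicate 1 or either knockdown replicate. CD47, the signal that restrains phagocytes, rose at both (0.79, limma adjusted p = 0.0012, and 0.39, 0.00248), and CD276 rose under hypoxia (0.66, 0.000371), where CD274 fell. Of 12 genes listed for PD-L1 stability, 10 were tested, with 2 higher and 1 lower under normoxia (median −0.06) and 4 higher and 3 lower under hypoxia (median 0.10). The normoxia calls became 0 and 0 without control replicate 1, 0 higher and 1 lower without control replicate 2, and 1 higher and 0 lower without knockdown replicate 2. CMTM6, which protects PD-L1 from degradation, was higher at both oxygen levels. Its normoxia means were 100 RPKM in control and 121 RPKM in knockdown libraries (0.26, limma adjusted p = 0.0218). Without 1 library that log2 fold change ran from 0.19 to 0.34, and the normoxia call did not hold in every case. Under hypoxia the CMTM6 means were 75.4 FPKM in control and 109 FPKM in knockdown libraries (0.53, limma adjusted p = 0.000465).

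The genes whose profiles lay nearest to HLA-B over the 8 libraries, by root mean square distance of log2(value + 1) after centring each table, were PCDH1 (0.14), SEMA6B (0.152), IGFBP4 (0.161), BTC (0.173) and GPR161 (0.191), out of 12060 genes. None of these 5 is in the lists above. Nearest to IRF1 were TRIM23 (0.0257), SH3GLB1 (0.0271), GOLM1 (0.0343), PRDM1 (0.0348) and PTPN1 (0.037). Nearest to NLRC5 were AC009120.2 (0.0334), CAPN10-DT (0.0441), NUB1 (0.046), ZC3H12A (0.0466) and SLC2A11 (0.0471). Nearest to CD274 were SLC27A5 (0.0311), HDAC7 (0.0317), PGAP2 (0.0335), BCAS2 (0.0381) and BUD23 (0.0409). Small changes give small distances, so these values are not comparable between the 4 genes.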

How the data were processed

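Per the labels' protocols, poly(A) RNA from DNase-treated Trizol extracts went into directional libraries. Per the submitters' processing notes, cutadapt 1.18, Trimmomatic 0.35, FastQC and HISAT2 2.1.0 were used with GRCh38. Counting tool, strand setting and annotation were not stated, that is, not given in the sources used here. Per the file headers, the authors deposited RPKM by symbol for normoxia and FPKM by Ensembl identifier for hypoxia, each table on its own scale. The annotated hypoxia sheet (19630 genes, 0 values differing) supplied coordinates, and its 4 columns of samples outside this series were not used. Exon lengths and overlaps came from GENCODE 29.

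Genes with a mean of at least 1 were fitted as log2(value + 1), which understates changes of low genes, with limma 3.58.1 (moderated test, mean-variance trend) in R 4.3.3, Benjamini-Hochberg adjusted over all genes and called at an adjusted p under 0.05. The difference of responses is the interaction term over 8 libraries, for the 57069 symbols used once in each table and a mean of at least 1 in each. Depth was taken as the read number at which most values of single-exon genes with up to about 20 reads came within 0.05 of a whole read (91.0% to 91.8% of them, a share the search maximised). The 8 genes, the lists and the tests were chosen with earlier results of these data known. Named from each list were up to 4 called genes of largest change, JAK1, JAK2, RFX5, CIITA, TAP1 and PSMB9, the 5 nearest profiles, and antisense or pseudogene neighbours. IL10RB, EPCAM, KRT8, LGALS4, CD14, HLA-DMA, IFNE, IFNB1 and IFNG were chosen after their values were seen. Python 3.11.15, numpy 2.4.6 and pandas 2.3.3 read the tables. The fit was tested on simulated data. Alternatives were pseudocounts of 0.1 and 0.01, filters, scalings, other limma settings, a joint fit, a replicate block, a threshold of 0.01 and leaving out each library. Some genes are not reported here and were left out of the lists.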

Additional observations from a re-analysis of the deposited data

Results flagged for a closer look

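The knockdown response differed between oxygen levels for 4 of the 8 genes by the interaction term of limma, with the difference given as hypoxia minus normoxia on the log2 scale. For B2M it was −0.83 (adjusted p = 0.000138), as the rise of 0.80 under normoxia had no counterpart under hypoxia (−0.03). For CD274 it was −0.67 (adjusted p = 0.00595), from 0.15 and −0.52. For HLA-F it was −0.63 (adjusted p = 0.0121), from 0.49 and −0.13. For NLRC5 it was −0.55 (adjusted p = 0.0234), from 0.27 and −0.28, neither of which passed alone. The median difference over all 12060 genes was −0.13, and 31.4% of them were called lower in this test. Each oxygen level has its own table, so in this test oxygen and differences between the tables cannot be told apart. PPA2 itself fell less under hypoxia, with a difference of 1.11 (limma adjusted p = 0.000165), and its part in these differences was not tested.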

How the results depend on the processing

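Under normoxia, 5 genes of the 8 were called higher and 0 lower under every alternative run. The count over all genes, 4818, became 2349 with no filter on low values, 2147 at a threshold of 0.01, and 3027 to 4503 when 1 library was left out. Under hypoxia the count of the 8 called higher, 4, became 2 at a threshold of 0.01 and 2 to 4 without 1 library (2 without knockdown replicate 1 or 2). The count called lower, 1 (CD274), became 0 with no filter and at 0.01. A filter at a mean of 5 leaves CD274 out of testing, so the 0 under that filter says nothing about its call. Without 1 library the CD274 value under hypoxia ran from −0.62 to −0.42. For the difference of responses, 5491 genes became 3609 at 0.01. Of the 8, the count called higher, 0, became 1 with mitochondrial genome genes left out (HLA-C). The count called lower, 4, became 2 with no filter and at 0.01. It was also 2 with a filter at a mean of 5, which leaves NLRC5 and CD274 out of testing. Without 1 library not every call held. The differences then ran from −0.91 to −0.75 for B2M, −0.77 to −0.57 for CD274, −0.79 to −0.47 for HLA-F and −0.64 to −0.45 for NLRC5.

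Signs turned for values that had not passed. HLA-F under hypoxia was 0.048 with mitochondrial genome genes left out and ran from −0.29 to 0.024 without 1 library. B2M under hypoxia was 0.045 with median ratio scaling, 0.161 with mitochondrial genome genes left out and −0.093 to 0.030 without 1 library. The IRF1 difference was 0.036 with median ratio scaling and 0.024 with mitochondrial genome genes left out. RFX5 under normoxia was 0.046 with mitochondrial genome genes left out and −0.057 to 0.047 without 1 library. The causes were not tested. Leaving mitochondrial genome genes out moved the median of all genes by 0.17 under hypoxia and 0.12 for the difference, and median ratio scaling moved the latter by 0.13.

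Deviations of libraries with the same replicate number correlated at 0.04 under normoxia and −0.02 under hypoxia, so the numbers were not taken as pairs. With the replicate block, 5060 genes were called under normoxia, 7751 under hypoxia and 5342 for the difference, and 3 of the 8 genes were called higher under hypoxia, since HLA-E did not pass (0.19, limma adjusted p = 0.0553). With 2 libraries a group, low genes such as NLRC5 and CD274 and differences below about 0.2 on the log2 scale are weakly resolved.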
